A study of Mus musculus with 4 samples.

Results

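The genes described here are 10 transcription factors of bulge stem cells, the cells of the lower permanent hair follicle that rebuild the hair in each cycle. They are Sox9, Lhx2, Nfatc1, Tbx1, Barx2, Foxp1, Tcf7l1, Tcf7l2, Foxc1 and Runx1. They were chosen by symbol from general knowledge of stem cell identity, with earlier results of these data known. All 10 occur among the 55401 genes of the deposited table. RNA-seq was done on hair follicle stem cells of C57BL/6 mice in anagen, when hair grows. The mice received a high-fat diet for 4 months (HFD, 2 libraries) or a normal diet (ND, 2 libraries). The labels name no genetic change and give neither age, sex nor the way the cells were isolated. They also do not say that each library is a different animal, so the p-values rest on a spread that may be technical only. The comparison asks which stem cell transcripts differ between the diets.

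Bulge stem cells spend most of the hair cycle at rest, and a set of transcription factors keeps them undifferentiated, quiet and distinct from epidermis. In mouse skin SOX9 and LHX2 specify and maintain the stem cell pool, and TBX1 is needed for its self-renewal. NFATC1, which calcium and calcineurin bring into the nucleus, FOXC1 and FOXP1 restrain division. RUNX1 promotes entry into anagen, and TCF7L1 and TCF7L2 are DNA-binding partners of beta-catenin that repress or activate Wnt target genes. BARX2 is a homeodomain factor that hair follicles express and that shapes hair growth in mice.

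No member was called between the diets. Lhx2, Tbx1, Barx2, Nfatc1 and Sox9, the 5 members with the highest RNA level per length, and Tcf7l2 had lower values in both HFD libraries than in both ND libraries. Foxp1 and Foxc1 were higher in both HFD libraries, and Tcf7l1 and Runx1 overlapped between the diets. Of the 10 members, 0 passed an adjusted p under 0.05 (quasi-likelihood test of edgeR), where 1.35% of the 14479 genes tested did, 1.12% higher and 0.228% lower. Among the 3778 genes with a mean of at least 50 CPM (counts scaled to library size by TMM), 2.46% did. At an unadjusted p under 0.05 there were 4 lower members and 1 higher, 5 in all, against 13.3% of all genes tested (7.24% higher, 6.03% lower) and 20.4% of those with at least 50 CPM. DESeq2 called 1 member, Lhx2, and limma called 0, each with 5 members at an unadjusted p under 0.05. In limma on log2(FPKM + 1), Sox9 (unadjusted p = 0.040) took the place of Foxp1 (unadjusted p = 0.171), so those 5 were all lower. The diets did not overlap for 8 members, 2 higher and 6 lower, against 44.6% of all genes tested (22.7% higher, 21.9% lower). Among genes with at least 50 CPM that share was 50.4%, and 29.4% lower. The median log2 fold change (HFD over ND) was -0.15 over the 10 members and 0.00181 over all genes tested.

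**Figure D1:**
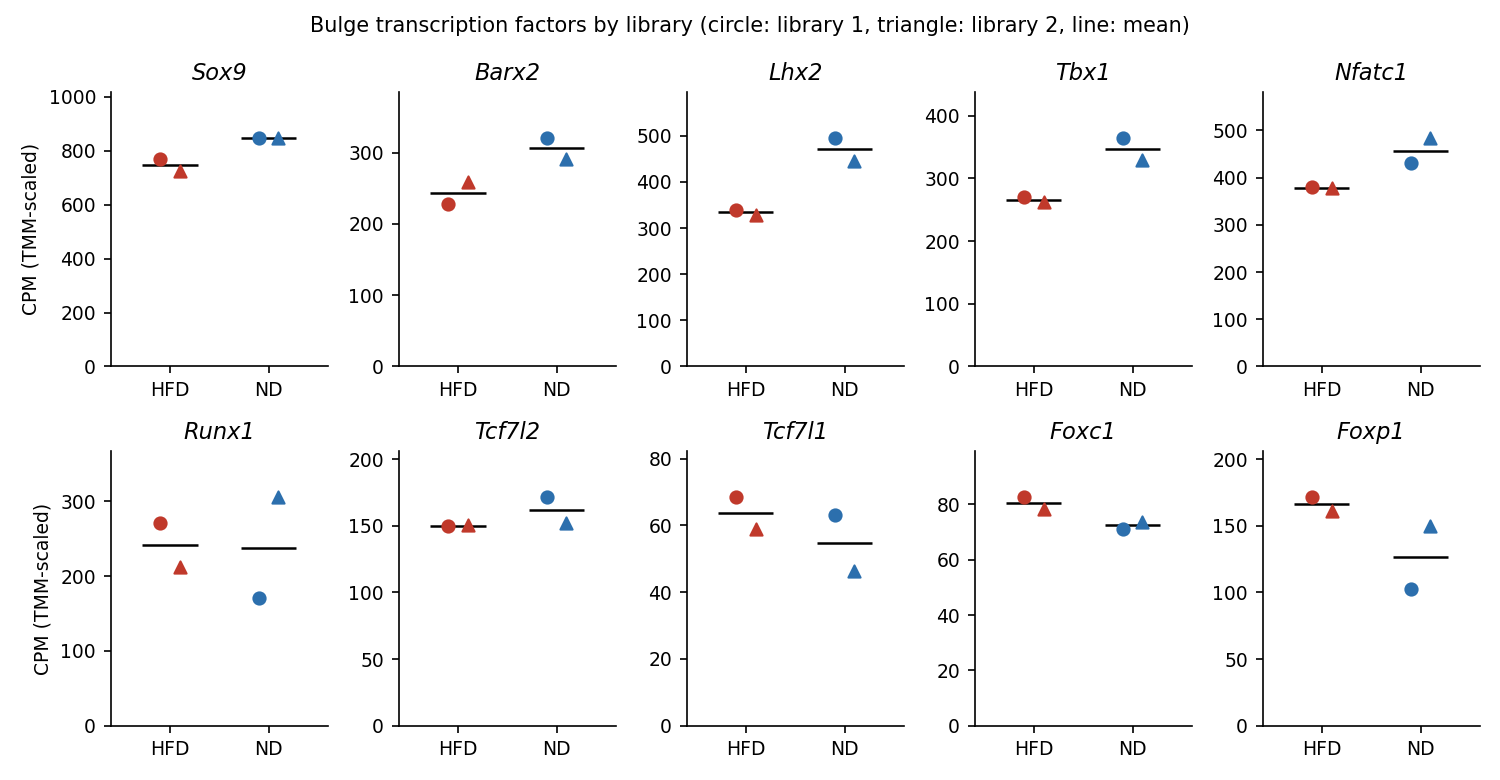
Each panel shows 1 transcription factor, with CPM from 0 on the vertical axis, HFD at the left and ND at the right; circles are the first library of a diet, triangles the second, and lines the mean of 2. Lhx2 sits at 340 and 329 CPM in HFD and 496 and 446 CPM in ND, while the 2 ND values of Runx1, 171 and 306 CPM, lie on either side of both HFD values.

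By deposited FPKM, which scales for exonic length, the order of the 10 mean levels was the same in HFD and in ND. Sox9 was highest, at 179 and 170 FPKM in HFD and 212 and 209 FPKM in ND, and Foxp1 lowest, at 12.0 and 11.4 FPKM in HFD and 7.71 and 11.1 FPKM in ND. Mean levels between them in HFD and ND were 119.9 and 159.8 FPKM for Barx2, 73.7 and 110.2 for Lhx2, 73.2 and 101 for Tbx1, and 49.0 and 62.9 for Nfatc1. A gap followed, to 19.4 and 20.3 FPKM for Runx1, 16.3 and 18.7 for Tcf7l2, 15.7 and 14.4 for Tcf7l1, and 13.3 and 12.7 for Foxc1. Of the 9 neighbouring pairs in this order, the libraries of Lhx2 and Tbx1 overlapped in both diets. Runx1 overlapped Tcf7l2, and Tcf7l1 overlapped Foxc1, in ND only, and Tcf7l2 overlapped Tcf7l1 in HFD only. The other 5 pairs did not overlap in either diet. Ranked by mean CPM, the members stood between the 77.9th percentile of genes tested for Tcf7l1 and the 99.5th for Sox9.

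Lhx2, a LIM homeodomain factor (chromosome 2, positions 38339281 to 38369733 on GRCm38, plus strand), showed the largest difference of the members. It had 340 and 329 CPM in HFD libraries and 496 and 446 CPM in ND libraries, so both HFD values lay below both ND values. The log2 fold change was -0.49 ± 0.12 (SE), a level of 0.710 times that with ND (95% interval 0.593 to 0.850), and missed the threshold (edgeR adjusted p = 0.074). Its adjusted p lay between 0.00486 and 0.483 over 15 alternative settings, and it was called in 4 of them. Tbx1, a T-box factor (chromosome 16, positions 18580979 to 18590671, minus strand), had 271 and 262 CPM in HFD and 365 and 329 CPM in ND. This was a log2 fold change of -0.38 ± 0.12 (SE; 95% interval -0.64 to -0.12; edgeR adjusted p = 0.189). For both genes the first ND library was the higher of the ND pair, and in bulk RNA fewer cells of a type cannot be told apart from less RNA per cell.

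The DNA just upstream of these 2 genes is shown because they had the smallest p of the members and because their windows differ in composition. The sequences are the 250 bases before the RefSeq start that coincides with the gene start of the deposited table, on GRCm38.p6, read 5′ to 3′ on the gene's strand. They lie at chr2:38339031-38339280 (plus strand) for Lhx2 and chr16:18590672-18590921 (minus strand) for Tbx1, outside annotated genes of GENCODE. Capitals mark GC boxes.
Lhx2: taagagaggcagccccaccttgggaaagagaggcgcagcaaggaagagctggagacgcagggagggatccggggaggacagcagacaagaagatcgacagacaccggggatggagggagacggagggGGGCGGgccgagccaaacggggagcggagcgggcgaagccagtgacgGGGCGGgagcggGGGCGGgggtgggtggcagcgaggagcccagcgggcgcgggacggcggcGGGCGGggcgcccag
Tbx1: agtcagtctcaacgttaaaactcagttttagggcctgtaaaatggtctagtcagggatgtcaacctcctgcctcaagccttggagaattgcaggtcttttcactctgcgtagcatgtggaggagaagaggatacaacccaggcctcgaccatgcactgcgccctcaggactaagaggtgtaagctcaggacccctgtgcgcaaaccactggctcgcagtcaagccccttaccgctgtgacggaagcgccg
The Lhx2 window is 72.8% G and C with 25 CpG dinucleotides, the Tbx1 window 54.4% with 10. The search covered both strands. Promoter elements were the letters of a TATA box, TATAAA, of a CCAAT box, spelled as its name, and of a GC box, GGGCGG. Letters for factor families were TAATTA for LIM homeodomain proteins, TGTGGT for RUNX proteins, TGTTTA for forkhead proteins, GGAAAA for NFAT proteins, CTTTGA for TCF proteins, ACAAAG for SOX proteins and AGGTGTGA for T-box proteins. The reverse complement of the SOX letters differs from the TCF letters in the last base alone. The Lhx2 window held 4 GC boxes, on the plus strand, and a GC box occurs in 32.7% of the 32851 RefSeq windows of this length. None of the 10 motifs was found in the Tbx1 window. Across all windows the other letters occur in 12.4% for the TATA box, 33.8% for CCAAT, 4.84% for LIM homeodomain, 14% for RUNX, 12% for forkhead, 20.4% for NFAT, 13.8% for TCF, 16.5% for SOX and 1.12% for T-box. RefSeq lists a further start inside both genes, at 38351308 for Lhx2 and 18588899 for Tbx1, and counts per gene cannot tell the starts apart. The RefSeq table had windows for 7 of the 10 members and none for Sox9, Nfatc1 and Barx2.

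Barx2 (chromosome 9, positions 31846044 to 31913462, minus strand) had 228 and 259 CPM in HFD and 321 and 291 CPM in ND. The log2 fold change was -0.33 ± 0.13 (SE; 95% interval -0.60 to -0.05; edgeR adjusted p = 0.279). The HFD pair differed here by more than it did for Lhx2 or Tbx1, and the diets still did not overlap. Nfatc1 (chromosome 18, positions 80606205 to 80713071, minus strand) had 379 and 377 CPM in HFD and 430 and 484 CPM in ND, a log2 fold change of -0.27 ± 0.12 (SE; 95% interval -0.53 to -0.01; edgeR adjusted p = 0.347). Here the second ND library was the higher one, the reverse of Lhx2, Tbx1 and Barx2. Sox9, an HMG-box factor (chromosome 11, positions 112782224 to 112787760, plus strand), had 770 and 724 CPM in HFD and 848 CPM in both ND libraries. Its 95% interval of the log2 fold change, -0.43 to 0.06, covers 0 (edgeR adjusted p = 0.528), and as a fold it runs from 0.745 to 1.04.

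**Figure D2:**
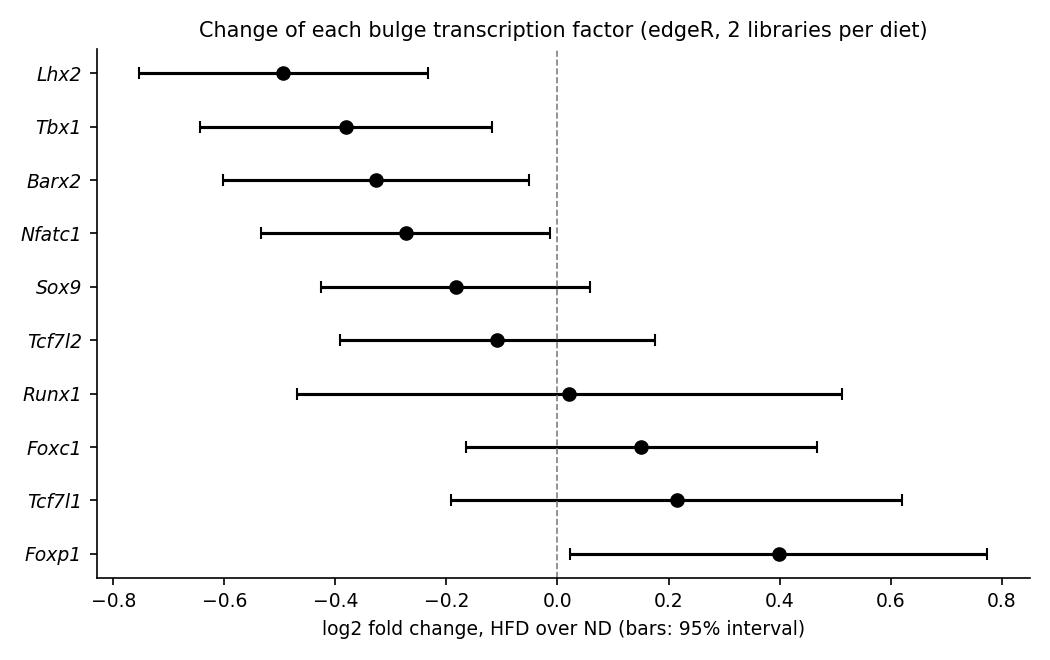
Points are log2 fold changes of HFD over ND for the 10 transcription factors and bars their 95% intervals (edgeR, 2 libraries per diet), with 0 dashed. Intervals of Lhx2, Tbx1, Barx2 and Nfatc1 lie below 0 and that of Foxp1 above 0, before adjustment over all genes.

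Foxp1, a forkhead factor (chromosome 6, positions 98925338 to 99522721, minus strand), went the other way. It had 172 and 161 CPM in HFD and 102 and 150 CPM in ND, with a log2 fold change of 0.40 ± 0.17 (SE; 95% interval 0.02 to 0.77; edgeR adjusted p = 0.339). The size depended on the ND pair: it was 0.15 without the first ND library and 0.70 without the second. Foxc1, also a forkhead factor (chromosome 13, positions 31806633 to 31812476, plus strand), had 82.7 and 78.2 CPM in HFD and 71.1 and 73.8 CPM in ND. Its log2 fold change of 0.15 ± 0.14 (SE) had a 95% interval of -0.16 to 0.47 (edgeR adjusted p = 0.720).

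Runx1, a runt-domain factor (chromosome 16, positions 92601466 to 92826149, minus strand), varied more between libraries of 1 diet than between diets. It had 272 and 212 CPM in HFD and 171 and 306 CPM in ND, and the higher ND library exceeded the lower 1.79-fold. Its log2 fold change of 0.02 ± 0.22 (SE) has no stable sign. It was -0.06 when libraries were scaled by total counts, -0.02 when scaled to equal sums of TPM, -0.34 without the first ND library and 0.50 without the second. The 95% interval of -0.47 to 0.51 leaves room for a 1.43-fold difference upward or a level of 0.722 times that with ND.

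**Figure D3:**
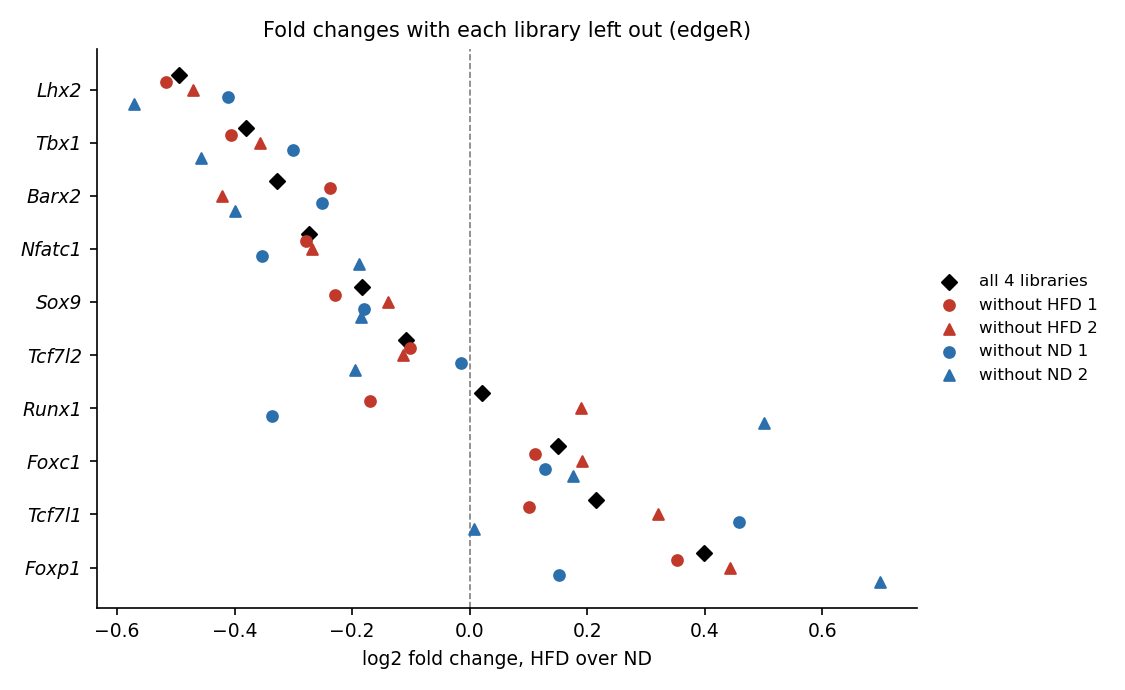
Log2 fold changes of HFD over ND for each transcription factor from all 4 libraries (diamonds) and with each library left out (red, an HFD library; blue, an ND library). Lhx2 stays between -0.57 and -0.41, while Runx1 runs from -0.34 to 0.50 and Foxp1 from 0.15 to 0.70.

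The Wnt effectors Tcf7l2 (chromosome 19, positions 55741820 to 55933654, plus strand) and Tcf7l1 (chromosome 6, positions 72626378 to 72789254, minus strand) did not pass the test in either direction. Tcf7l2 had 149.6 and 151 CPM in HFD and 172 and 152 CPM in ND, with a 95% interval of the log2 fold change of -0.39 to 0.18. Tcf7l1 had 68.5 and 58.8 CPM in HFD and 63.2 and 46.5 CPM in ND, with an interval of -0.19 to 0.62. The value of 0.21 on the log2 scale became 0.46 when the first ND library was left out and 0.01 when the second was. Of the other family members, Tcf7 had 45.0 and 31.0 CPM in HFD and 42.4 and 49.9 CPM in ND. Lef1, the factor of hair matrix cells, stayed low at 6.66 and 7.65 CPM in HFD and 2.72 and 8.16 CPM in ND. As a share of the summed FPKM of these 4 genes, Tcf7l1 made up 34.98% and 34.8% in HFD and 32.4% and 25.5% in ND. This difference of 5.95 percentage points gave an exact two-sided permutation p of 0.333, the smallest that 2 libraries against 2 allow, and it was 9.37 without the first ND library and 2.53 without the second. Tcf7l2 made up 33.7% and 39.3% in HFD and 38.8% and 36.8% in ND.

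**Figure D4:**
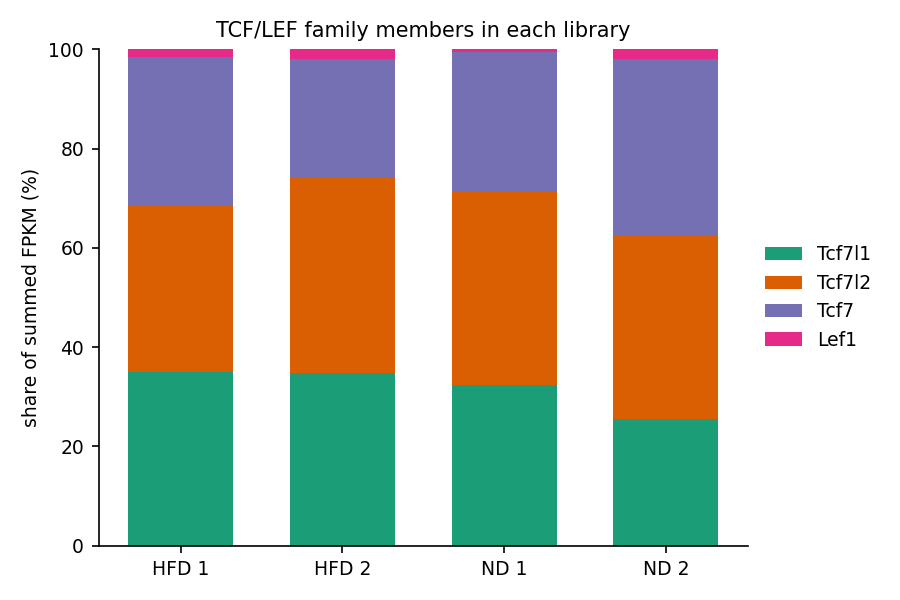
Stacked bars give the share of Tcf7l1, Tcf7l2, Tcf7 and Lef1 in their summed FPKM, in percent, for the 2 HFD libraries and the 2 ND libraries. Tcf7l1 takes 34.98% and 34.8% in HFD and 32.4% and 25.5% in ND, and Lef1 at most 2.03% in any library.

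Among relatives from the same gene families some genes passed the test. Of 50 listed relatives 20 were expressed enough to test, of which 4 rose and 1 fell (edgeR adjusted p under 0.05). Sox6 rose to 20.9 and 32.9 CPM in HFD, against 1.65 and 4.71 CPM in ND, with a log2 fold change of 3.09 ± 0.44 (SE; edgeR adjusted p = 0.0078). Sox7 rose to 28.3 and 24.9 CPM in HFD, against 6.22 and 10.5 CPM in ND. Sox21 rose to 35.2 and 43.1 CPM in HFD, against 8.26 and 17.8 CPM in ND. Nfatc2, a relative of Nfatc1, rose to 12.5 and 11.4 CPM in HFD, against 1.75 and 3.14 CPM in ND. Each of these 4 genes stayed far below Sox9 or Nfatc1 in level per length, with HFD means of 1.76 FPKM for Sox6, 7.80 for Sox7, 9.98 for Sox21 and 1.095 for Nfatc2. Sox13, an HMG-box factor of the SoxD group, fell to 187 and 162 CPM in HFD, against 258 and 281 CPM in ND. None of these called relatives changed sign when any 1 library was left out. Their log2 fold changes then ran from 2.51 to 4.01 for Sox6, 1.35 to 2.09 for Sox7 and 1.139 to 2.24 for Sox21. They ran from 1.92 to 2.76 for Nfatc2 and from -0.73 to -0.52 for Sox13. With limma 0 relatives were called. Among relatives that did not pass, Sox4 had 207 and 176 CPM in HFD and 268 and 256 CPM in ND. Nfat5, the tonicity-responsive relative, had 192 and 203 CPM in HFD and 121 and 170 CPM in ND. Nfatc3 had log2 fold changes near 0, at -0.03 ± 0.13 (SE), and the Runx1 relatives Runx2 and Runx3 had at most 5.35 CPM in any library. Foxp4, a relative of Foxp1, had 75.8 and 81.6 CPM in HFD and 81.8 and 107.8 CPM in ND. Sox5 had 4.64 and 3.59 CPM in HFD and 4.86 and 11.2 CPM in ND, and Nfatc4 at most 4.05 CPM in any library. Barx1, the nearest relative of Barx2, was at 0 counts in all 4 libraries, as was Sox2, and Foxc2, Foxp2 and Tbx3 had at most 4 counts and Tbx2 at most 8.

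Cofactors and activators of the 10 factors were not called. Of 30 tested, 0 passed the edgeR test and 1 had an unadjusted p under 0.05, Ssbp4, with a median log2 fold change of -0.11. DESeq2 also called 0. Ssbp4, a single-stranded DNA-binding protein gene, had 23.0 and 20.2 CPM in HFD and 29.4 and 34.02 CPM in ND. The corepressor gene Tle4 had 56.4 and 66.8 CPM in HFD and 81.2 and 59.2 CPM in ND. The beta-catenin gene Ctnnb1 had 795 and 768 CPM in HFD and 832 and 868 CPM in ND. The LIM domain-binding gene Ldb1, whose protein pairs with LHX2, had 147 and 148 CPM in HFD and 151 and 181 CPM in ND. Lmo4, which competes for that protein, had 75.3 and 69.4 CPM in HFD and 92.3 and 73.7 CPM in ND. Cbfb, the shared partner of RUNX factors, had 104 and 90.2 CPM in HFD and 112 and 104 CPM in ND. The calcineurin gene Ppp3ca had 162 and 157 CPM in HFD and 127 and 148 CPM in ND (edgeR adjusted p = 0.538).

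Among genes that the factors are known to act on, 3 rose in 2 lists. Of 14 tested target genes of TCF factors and beta-catenin, 2 rose and 0 fell. Tnfrsf19, a receptor of the TNF receptor superfamily, rose to 47.8 and 50.7 CPM in HFD, against 13.4 and 10.05 CPM in ND (log2 fold change 2.07 ± 0.22 (SE), edgeR adjusted p = 0.0023). Apcdd1, a Wnt inhibitor, rose to 52.7 and 55.1 CPM in HFD, against 18.9 and 25.9 CPM in ND. Axin2, a feedback inhibitor widely used as a Wnt readout, had 50.4 and 53.3 CPM in HFD and 30.6 and 33.7 CPM in ND, which did not pass (edgeR adjusted p = 0.093). Cyclin D1 (Ccnd1) had 162 and 199.6 CPM in HFD and 355 and 237 CPM in ND, and the stem cell receptor gene Lgr5 had 212 and 217 CPM in HFD and 226 and 244 CPM in ND. Of 19 tested genes reported downstream of the factors in follicle stem cells, 1 rose, the prolactin receptor gene Prlr, to 49.7 and 59.0 CPM in HFD, against 25.3 and 24.1 CPM in ND. Cyclin D2 (Ccnd2) had 298 CPM in both HFD libraries and 192 and 214 CPM in ND (edgeR adjusted p = 0.052). Cdk4, which NFATC1 represses in mouse bulge cells, had 135 and 131 CPM in HFD and 184 and 157 CPM in ND (edgeR adjusted p = 0.265). Fgf18, a signal of resting stem cells, was too low to test at 5 and 8 counts in HFD and 5 and 0 counts in ND. With 1 library left out, log2 fold changes ran from 1.87 to 2.30 for Tnfrsf19, 1.06 to 1.51 for Apcdd1 and 1.01 to 1.26 for Prlr.

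**Figure D5:**
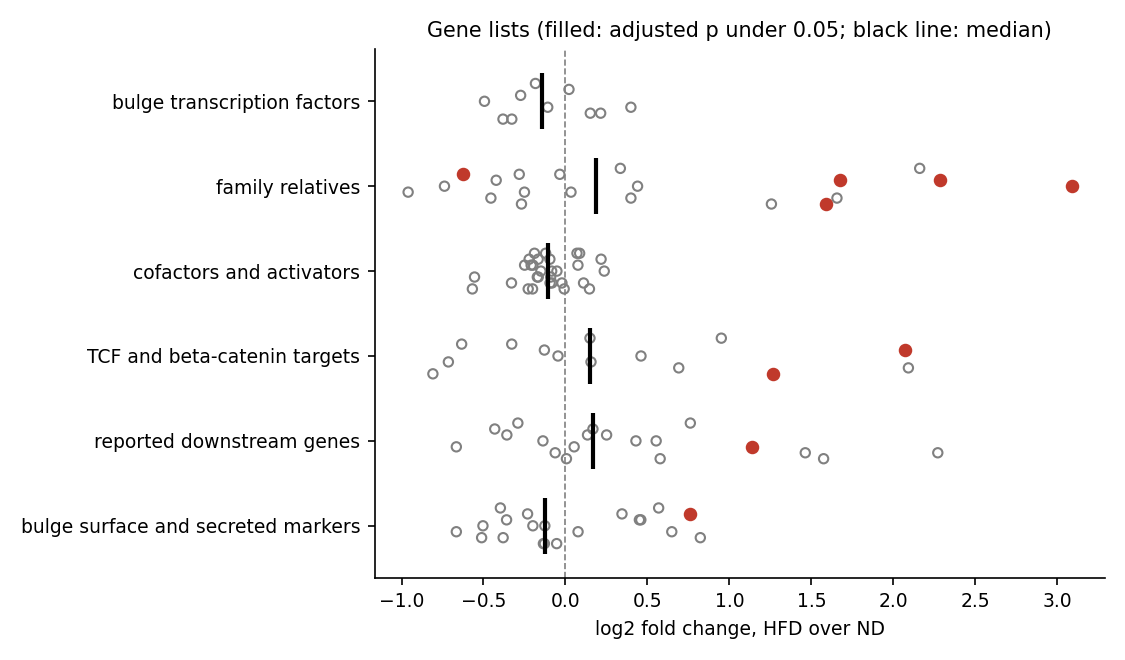
Each point is the log2 fold change (HFD over ND) of 1 tested gene in 6 lists, filled where the edgeR adjusted p was under 0.05, with the list's median as a black line. The bulge transcription factors lie between -0.49 and 0.40 with no filled point, and the family relatives reach 3.09 for Sox6.

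The labelled cell type was checked against 21 bulge surface and secreted markers, of which 20 were tested. Krt15 and Col17a1 were abundant, with 1641 and 559 FPKM on average in HFD and 1370 and 431 FPKM in ND. The markers Cd34, Lgr5 and Itga6 were detected in all 4 libraries. Krt19, Bmp6, Angptl7, Aspn, Fgf1, Igfbp5 and Igfbp6 were low, with means of at most 5.35 FPKM in either diet. The suprabasal gene Krt10 averaged 956 FPKM in HFD and 414 FPKM in ND, so the list does not settle the cell type. Of the 20 markers 1 rose, the matrix gene Tnc, to 223 and 195 CPM in HFD, against 131 and 115 CPM in ND, and the median log2 fold change was -0.13. Grem1, a BMP antagonist gene, had 118 and 135 CPM in HFD and 185 and 176 CPM in ND (edgeR adjusted p = 0.098). The log2 fold change of Tnc lay between 0.66 and 0.86 with 1 library left out, and limma did not call it (adjusted p = 0.180). Total counts were between 8590570 and 9940848 per library, of which the 10 members took between 21837 and 31284.

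Markers of other cells gave these values. Of 14 tested markers of hair germ, matrix and inner sheath, edgeR called 0. The smallest p there were those of Foxn1 (log2 fold change 2.01 ± 0.55 (SE), edgeR adjusted p = 0.117) and Ovol1 (1.23 ± 0.38 (SE), edgeR adjusted p = 0.184). Of 2 tested Merkel cell markers, edgeR called 0. Of 10 suprabasal epidermal markers 4 rose (Dsg1a, Krt2, Krtdap and Krt10) and 1 fell (Flg), with sums of 4072 and 5057 CPM in HFD and 1260 and 2965 CPM in ND. Krt10 and Flg were not called by DESeq2 (adjusted p = 0.275 and 0.219). The log2 fold change of Flg was -1.03 without the second ND library and -2.27 with all. Krt2 had 50 and 31 counts in HFD and 2 and 1 counts in ND, so that it was tested through its HFD counts alone. Of 6 upper follicle markers 4 rose (Cst6, Defb6, Krt79 and Gata6), with sums of 1629 and 1387 CPM in HFD and 1266 and 1147 CPM in ND. Limma called 0 suprabasal and 0 upper follicle markers. With 1 library left out, log2 fold changes ran from 1.47 to 1.75 for Dsg1a, 4.51 to 5.35 for Krt2 and 0.82 to 1.46 for Krtdap. They ran from 0.85 to 1.92 for Krt10, 1.31 to 1.67 for Cst6 and 0.98 to 1.29 for Defb6. For Krt79 they were 0.51 to 0.79 and for Gata6 1.78 to 2.05. All 12 proliferation genes had negative log2 fold changes (median -0.55), 10 of them at an unadjusted p under 0.05 (edgeR), and 1 fell (Cdc20). Of the 14479 genes tested, 7222 had negative log2 fold changes, and 6.03% were lower at an unadjusted p under 0.05. With 1 library left out, the log2 fold change of Cdc20 lay between -0.95 and -0.66. The 12 genes summed to 2925 and 3108 CPM in HFD and 4805 and 3365 CPM in ND. The first ND library was the highest, as it was for Lhx2, Tbx1, Barx2 and Tcf7l2. For Sox9, Nfatc1 and Runx1 the second ND library was the highest, and for Foxp1, Foxc1 and Tcf7l1 the first HFD library.

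Lists of cells from outside the follicle epithelium were low, and the sebaceous gland list is given after them. The sums given are over all listed genes. Fibroblast markers, 7 of 7 tested with positive log2 fold changes, summed to 82.2 and 66.1 CPM in HFD and 45.7 and 57.4 CPM in ND. Endothelial markers, 5 of 5 tested positive, summed to 19.0 and 22.2 CPM in HFD and 10.9 and 12.9 CPM in ND. Immune markers, 5 of 6 tested positive, summed to 46.9 and 52.1 CPM in HFD and 22.3 and 37.6 CPM in ND. Muscle markers, 4 of 4 tested positive, summed to 17.6 and 20.2 CPM in HFD and 10.6 and 9.11 CPM in ND. The adipocyte gene Lpl had 7.14 and 5.38 CPM in HFD and 2.91 and 2.09 CPM in ND. All these sums were higher in both HFD libraries than in both ND libraries. Of the 14479 genes tested, 7257 had positive log2 fold changes, and 22.7% were higher in both HFD libraries than in both ND libraries. In these 5 lists edgeR, DESeq2 and limma called 0 genes, with 2, 0, 2, 2 and 1 genes at an unadjusted p under 0.05 in edgeR. The dermal papilla list summed to 34.9 and 34.7 CPM in HFD and 66.0 and 35.6 CPM in ND. Its gene Rspo3 had 33 and 23 counts in HFD and 1 count in each ND library, so that it was tested through its HFD counts alone, and its call (edgeR adjusted p = 0.0496) was lost in 9 of 15 alternatives. Melanocyte markers summed to 40.9 and 30.4 CPM in HFD and 54.3 and 29.9 CPM in ND. Sebaceous gland markers summed to 202 and 189 CPM in HFD and 288 and 217 CPM in ND. Most of that sum was Scd1, at 188 and 179 CPM in HFD and 271 and 204 CPM in ND. Among the markers of these lists, Twist2 (fibroblast), Corin (dermal papilla), Itgam (immune), Adipoq, Plin1 and Cidec (adipocyte) were at 0 counts in all 4 libraries. The part of these cell types in the members' values was not tested.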

How the data were processed

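RNA-seq was done on 4 libraries of mouse hair follicle stem cells. The authors deposited raw counts per gene and FPKM in 1 table with gene symbols and coordinates, and per the file headers the FPKM divide by exonic size. The deposited FPKM matched count over size and library total within 0.005. Tools listed in the submitters' processing notes are HISAT2 2.0.1, cutadapt 1.9.1 and bcl2fastq 2.17.1.14. For the counting program, strand handling and build, the entry is "not given in the sources used here". All 10 members have the coordinates of GENCODE on GRCm38. Any single gene that overlaps a member in the table had at most 7.37% of its counts (Ppnr in Tcf7l2). Tcf7l1 overlaps several such genes, the largest at 5.41% (Gm37736), so their combined share is larger. Without known strand handling such reads cannot be told apart.

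Counts of all genes were tested in R 4.3.3 with edgeR 4.0.16 (quasi-likelihood, TMM, default filter by diet, 14479 genes kept, all 10 members among them). A gene could pass through 1 diet alone. P-values were adjusted by Benjamini-Hochberg over all genes tested, and called under 0.05. SE is the log2 fold change over the square root of F, and intervals are 95%. Fold changes are HFD over ND, on the log2 scale. Labels give the diet. DESeq2 1.42.0, limma 3.58.1 on log2(FPKM + 1) and log2(FPKM + 0.1), other scalings, filters and priors, removal of ribosomal, mitochondrial and small RNA, leaving out each library and a replicate block were alternatives. Members and lists were chosen with earlier results of these data known. Genes set to be named were the members, listed close relatives and partners, marker genes, and from each list the called genes or the smallest p up to 2. Not all of them are printed. Ppp3ca, Axin2, Ccnd1, Cdk4, Sox2 and Fgf18 were chosen after their values were seen. Counts carry no molecular identifiers, so precision from depth covers counting error only.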

Additional observations from a re-analysis of the deposited data

How the results depend on the processing

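Over 15 alternatives, 0 members were called in 11, and 1, Lhx2, in the other 4: DESeq2 (adjusted p = 0.00486), no filter (0.00609), scaling by total counts (0.041) and a robust prior (0.042). The median member log2 fold change lay between -0.23 and -0.13, against -0.15 in the main fit. The between-replicate SD of the members' median log2 CPM (0.178) is larger in size than that median, so it cannot judge these moves. Lhx2, Tbx1, Barx2, Nfatc1, Sox9, Tcf7l2, Foxc1, Tcf7l1 and Foxp1 kept their direction in all 15. Runx1 reversed under limma with pseudocount 1 (-0.018) or 0.1 (-0.017), total counts (-0.063) and equal sums of TPM (-0.024). With 1 library left out Runx1 ran from -0.34 to 0.50, Lef1 from -0.19 to 1.39, Nfatc3 from -0.12 to 0.054, Tle4 from -0.40 to 0.060, Hhip from -1.65 to 0.21 and Tyrp1 from -1.48 to 0.092, each with a reversal without the first ND library and Runx1 also without the first HFD library (-0.17). The cause was not tested. Equal sums of TPM moved the median of all genes by -0.07 and left 2 members at an unadjusted p under 0.05. With 1 library left out, the lone library of a diet is assumed to vary like the other diet's pair, so 0 calls in such a fit say little. The share difference of Tcf7l1 was 4.21 points from counts. Over all genes the tests called 394 with DESeq2 and 2 with limma against 195. DESeq2 called 6 family relatives, 4 TCF targets, 2 downstream genes and 3 bulge markers, and limma 0 of each; alternatives on these lists were added after seeing the data. The labels number replicates in both diets but do not say that they pair libraries. Deviations of same-numbered libraries correlated at -0.0046, which cannot exclude a pairing with 2 libraries per diet. With the replicate block 0 members were called, the median was -0.14, and 419 genes were called.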

Other observations

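Beyond the 10 members, 615 tested genes carry a transcription factor or sequence-specific DNA binding term in the table, all 10 members included, and 12 rose and 4 fell (2.6% called, edgeR). Their median log2 fold change was -0.04. Genes named here were chosen after their values were seen. Klf5, a factor of proliferating basal epithelium, rose to 165 and 154 CPM in HFD, against 37.5 and 45.3 CPM in ND (log2 fold change 1.95 ± 0.15 (SE), edgeR adjusted p = 1.20e-04). The aryl hydrocarbon receptor gene Ahr rose to 43.5 and 48.6 CPM in HFD, against 12.4 and 14.03 CPM in ND, and the nuclear receptor gene Rora to 61.4 and 75.1 CPM, against 25.3 and 27.9 CPM in ND. Bmi1, a Polycomb gene, fell to 36.3 and 39.2 CPM in HFD, against 64.3 and 67.5 CPM in ND. Without the first or second HFD library 5 and 4 of these genes were called, and without either ND library 0; DESeq2 called 37 and limma 0.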
